A study of Mus musculus with 4 samples.

Results

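Sulfotransferases and flavin-containing monooxygenases are enzymes of hepatic drug, hormone and bile acid metabolism, and 9 of their genes were examined in the livers of mice that received a vector to delete the RNA-binding protein HuR from hepatocytes. The genes were taken by name from the count table and are Sult1a1, Sult1b1, Sult1d1, Sult2a8, Sult5a1, Fmo1, Fmo2, Fmo4 and Fmo5. They make up 9 of the 34 Sult and Fmo genes in the table, which holds 46603 genes. All 9 passed the filter on low counts, as did 13001 genes in all.

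The 4 mice were HuRflox/flox animals labelled male, on the C57BL/6 J background, and all were fed a Western diet with a fructose and glucose drinking solution (WDSW) for 4 weeks. Mice 1 and 2 were controls and had received AAV8-TBGP-GFP, an adeno-associated virus in which the thyroxine-binding globulin promoter drives GFP. Mice 3 and 4 are labelled HuR hKO and had received AAV8-TBGP-Cre, in which the same promoter drives Cre recombinase in hepatocytes. Floxed alleles, virus serotype, promoter, diet and labelled sex were therefore common to both groups, the study's methods speak of mice of both sexes for its work in vivo, the age in weeks is not given in the sources used here, and cells other than hepatocytes are not targets of this promoter. Total RNA of whole liver was sequenced, so fewer cells of a type and less RNA per cell cannot be told apart in any value given here.

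A sulfotransferase moves a sulfonate group from the donor PAPS (3′-phosphoadenosine-5′-phosphosulfate) to a hydroxyl or amino group, which makes phenols, catecholamines, thyroid hormones, steroids and bile acids more soluble and usually less active. A flavin-containing monooxygenase (FMO) uses FAD, NADPH and oxygen to add an oxygen atom to a nitrogen or sulfur of its substrate, alongside the cytochrome P450 system. In mouse liver several genes of both families differ strongly between males and females. HuR, the product of Elavl1, binds AU-rich and U-rich stretches of mRNA, often in the 3′ untranslated region (UTR), and is known for stabilising many of the mRNAs it binds.

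Elavl1 is the gene targeted by Cre, and its level was read first. It had 377 and 347 counts in control mice 1 and 2, and 541 and 648 counts in mice 3 and 4. On library sizes scaled with TMM factors these are 28.3 and 25.9 CPM (counts divided by the scaled library size in units of 1e6) in the controls against 37.7 and 34.4 CPM in the libraries labelled HuR hKO. The level was thus higher, not lower, in both libraries labelled HuR hKO, by 0.41 ± 0.135 on the log2 scale (SE). In edgeR's quasi-likelihood test the unadjusted p-value was 0.016 and the adjusted p-value was 0.545. The counts cover the whole gene and do not separate the floxed part, so they cannot show whether that part was deleted. The exons of Elavl1 also overlap those of Ccl25 on the opposite strand, which had between 33 and 57 counts. Mice 3 and 4 are therefore called the libraries labelled HuR hKO throughout.

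The libraries held between 13032095 and 19715577 counts, with the largest in mouse 4, and a gene without a count may still have had up to 3 counts, or between 0.159 and 0.225 CPM. This limit covers counting error only. The counts of each pair of mice differed by more than counting noise (chi-square over its degrees of freedom, 21.2 to 32.7), and every mouse stood for 1 replicate. The 8 hepatocyte markers examined summed to between 63220 and 71206 CPM, so the tissue carried the hepatocyte transcripts its label calls for. Of 5 erythroid markers, 3 had an unadjusted p-value under 0.05 in edgeR's test and were higher in the libraries labelled HuR hKO. Over all genes tested, 7.43% had such a p-value in either direction. The erythroid list summed to 363 and 450 CPM in the controls against 488 and 710 CPM in mice 3 and 4, with none at 0. These markers were read in the same 4 libraries and are not independent of each other. The 6 neutrophil markers summed to between 1.54 and 2.24 CPM, with Ly6g at 0 in all 4 libraries. The 6 pancreas markers summed to 13.7 and 9.62 CPM in the controls and 12.7 and 20.5 CPM in mice 3 and 4, most of it from Cela1, with Prss1 at 0 in all 4 libraries.

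HuR is known for binding AU-rich stretches, and the ATTTA pentamers of the 3′ UTR are shown for the 3 genes whose groups differed at an unadjusted p-value under 0.05. Each line gives 25 bases of the sense strand around an ATTTA, which is in capitals and is written with T for U. Sult5a1-201, Sult2a8-203 and Fmo4-202 are the transcripts with the longest 3′ UTR of each gene in GENCODE M21 (GRCm38), all on the minus strand, and each window lies within 1 exon.
Sult5a1, chr8:123142183-123142207: tcctgttttcATTTAtagcagctgt
Sult5a1, chr8:123141454-123141478: tatatacactATTTAaaaataaaaa
Sult5a1, chr8:123141299-123141323: ttgggtgaaaATTTAgatgcagatc
Sult2a8, chr7:14411631-14411655: cttgtttttgATTTAaggatgtggc
Sult2a8, chr7:14410845-14410869: ctttcaacgaATTTAaaaaaaaaca
Sult2a8, chr7:14410749-14410773: gtatcatcatATTTAatatttctcc
Fmo4, chr1:162793799-162793823: ttttttgtgcATTTAtttgtgccct
Fmo4, chr1:162793689-162793713: cataaacaaaATTTAcccatttcat

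ATTTA was searched on the sense strand only, and every 3′ UTR of the 9 genes held at least 1. Fmo2 held 6, Sult1d1 held 5, Sult2a8 and Sult5a1 held 3 each, Fmo4 and Fmo5 held 2 each, and Sult1a1, Sult1b1 and Fmo1 held 1 each. Among genes tested whose 3′ UTR lay in the length range of the 9 genes, from 539 to 3455 bases, 80.4% held an ATTTA. The density per kilobase ran from 0.579 in Fmo5 to 3.87 in Sult1d1, around a median of 1.46 for genes of that length range. Sult5a1 had 1.06, Sult2a8 had 2.94 and Fmo4 had 2.60 per kilobase. A link between density and direction of difference was not tested, and 3 genes are too few to decide it. The longer form TATTTAT, which contains an ATTTA, was found in 0 of the 9 genes and in 32.9% of genes of that length range. A match to these letters is not evidence of binding, and its absence from these UTRs says nothing about HuR.

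Because related enzymes can share reads, the sequence of each gene was compared with all transcripts. The coding sequences of the 5 sulfotransferases were between 53.2% and 64.0% identical in pairs, and those of the 4 FMO genes between 60.5% and 64.3%. No stretch of 50 bases was common to any pair of the 9 genes, so a read of that length has no exact match in another of them. Sult1b1, Sult1d1, Fmo2 and Fmo4 shared no 50-base window with any gene, and Sult2a8, Sult5a1 and Fmo5 shared at most 1.96% of theirs. Sult1a1 shared 7.36% of its windows, with Sgf29 and Gm6939, and Fmo1 shared 7.02%, with 26 genes, so the counts of these 2 genes are less certain. The exons of Sult1a1 overlap those of Sgf29 on the opposite strand, which had between 204 and 262 counts, and the use of strand in the counting is not given in the sources used here. Sult5a1 overlaps Gm20388 on the opposite strand with no overlap of exons, and Gm20388 had 276 and 284 counts in the controls and 263 and 122 in mice 3 and 4. Genes also stand together on the genome. Sult1b1 and Sult1d1 lie 16.4 kb apart on chromosome 5, and Fmo4, Fmo1 and Fmo2 follow each other on chromosome 1 with gaps of 15.6 and 7.7 kb.

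To see which enzymes dominate in these livers, levels were compared per kilobase of annotated exon. Fmo5 came first with a mean of 181 CPM per kb over the 4 mice (range 145 to 222), followed by Sult2a8 with 166 (120 to 198) and Sult1a1 with 144 (108 to 217). The ranges of these 3 genes overlapped, so their order does not go beyond the spread between mice. Sult1d1 followed with 45.0 CPM per kb, Fmo1 with 26.0 and Sult1b1 with 11.4, and the ranges of these genes were separate from those of their neighbours in the order. Fmo2 with 2.21, Fmo4 with 2.14 and Sult5a1 with 1.89 CPM per kb came last, and their ranges overlapped. When the longest transcript replaced the union of exons, Sult2a8 moved ahead of Fmo5 and Fmo1 moved ahead of Sult1d1, with the other places as before.

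**Figure D1:**
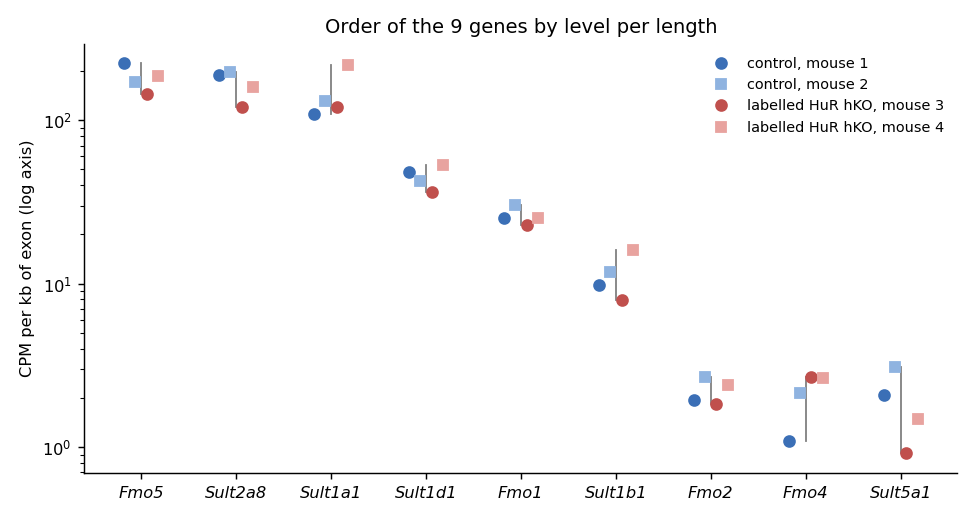
Level of each gene in CPM per kilobase of annotated exon (log axis), with 1 point for each of the 4 mice and a grey line from the lowest to the highest. Fmo5, Sult2a8 and Sult1a1 overlap at the top between 108 and 222, and Fmo2, Fmo4 and Sult5a1 overlap at the bottom between 0.914 and 3.10.

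The main comparison asked whether these genes differed between control livers and livers labelled HuR hKO. At an adjusted p-value under 0.05, 0 of the 9 genes passed edgeR's quasi-likelihood test, where 0.0231% of all genes tested passed. At an unadjusted p-value under 0.05, 3 of 9 passed against 7.43% of all genes. The 9 genes were chosen with earlier results of these data known, so this contrast is a description only. Under the rule of a fold of at least 1.8 with an unadjusted p-value under 0.05, 0 of 9 were higher (1.21% of all genes) and 1 of 9, Sult5a1, was lower (0.915% of all genes). The groups did not overlap in 1 gene that was higher, Fmo4 (19.3% of all genes), and in 2 genes that were lower, Sult2a8 and Sult5a1 (18.8% of all genes). The fitted difference was above 0 in 3 genes and below 0 in 6. The median log2 fold change was -0.01 for the 5 sulfotransferases and -0.16 for the 4 FMO genes, against 0.002 for all genes tested. With 2 mice in each group an exact permutation test cannot go below p = 0.333, and nothing in the labels names litters or batches.

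Sult5a1, a little-studied cytosolic sulfotransferase, showed the largest difference of the 9 genes. It had 122 and 184 counts in control mice 1 and 2 and 58 and 123 counts in mice 3 and 4, or 9.17 and 13.7 CPM against 4.04 and 6.52 CPM. Both libraries labelled HuR hKO lay below both controls. The mean level was 11.4 ± 3.22 CPM in the controls and 5.28 ± 1.75 CPM in the libraries labelled HuR hKO (SD, n = 2 each). The log2 fold change was -1.10 ± 0.287 (SE), a fold of 0.467 with a 95% interval from 0.295 to 0.737. Its unadjusted p-value in the edgeR model was 0.00485, and the adjusted p-value was 0.394. The adjusted p-value was 0.0154 when no filter on low counts was used, which ends with Sult5a1 past the threshold. The log2 fold change stayed below 0 with each mouse left out, from -1.50 without mouse 4 to -0.78 without mouse 2. Without mouse 2, without mouse 3 and without scaling for library size (-0.76) the gene no longer met the 1.8-fold rule.

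Sult2a8, the major bile acid sulfotransferase of mouse liver, was the other gene with lower levels. It had 618 and 649 CPM in the controls and 394 and 523 CPM in mice 3 and 4. The 2 controls lay close together, with a mean of 633 ± 21.9 CPM, and both libraries labelled HuR hKO lay below them, with a mean of 458 ± 91.4 CPM (SD, n = 2 each). The log2 fold change was -0.47 ± 0.171 (SE), a fold of 0.724 with a 95% interval from 0.551 to 0.951. Its unadjusted p-value was 0.0257 and its edgeR adjusted p-value was 0.579. It remained below 0 under all 14 alternatives, between -0.69 without mouse 4 and -0.13 without scaling for library size.

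Sult1a1, which sulfates simple phenols, had the highest fitted difference among the sulfotransferases, and it rested on 1 mouse. The levels were 163 and 198 CPM in the controls, 180 CPM in mouse 3 and 327 CPM in mouse 4. Mouse 3 fell between the controls, and mouse 4 stood above the other 3 livers. The log2 fold change was 0.49 ± 0.256 (SE; edgeR adjusted p-value of 0.708), with a 95% interval of the fold from 0.934 to 2.11. Without mouse 4 it was -0.003, and without mouse 3 it was 0.84. Mouse 4 also had the highest sums of the erythroid markers (above) and of 8 stellate cell markers, at 264 CPM against 192 to 206 CPM in the other livers. The stellate list was split. Dcn, Col1a1, Col3a1, Reln and Pdgfrb were highest in mouse 4, and Acta2, Des and Lrat were highest in mouse 1. The part of the erythroid and stellate markers in the value of Sult1a1 was not tested.

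Sult1b1, which acts on thyroid hormones and phenols, also had its highest level in mouse 4. It measured 27.3 and 32.7 CPM in the controls, 22.1 CPM in mouse 3 and 44.7 CPM in mouse 4. The 2 libraries labelled HuR hKO enclosed the controls, and the log2 fold change of 0.16 ± 0.288 (SE; edgeR adjusted p-value of 0.927) turned to -0.44 without mouse 4. Sult1d1, known for sulfating catecholamines such as dopamine, measured 119 and 104 CPM in the controls and 89.9 and 130 CPM in mice 3 and 4. Here too the libraries labelled HuR hKO lay on either side of the controls. Its log2 fold change was -0.01 ± 0.186 (SE; edgeR adjusted p-value of 0.994), with a 95% interval of the fold from 0.737 to 1.33, so a difference within this interval could not be told from none at this depth and number of mice.

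**Figure D2:**
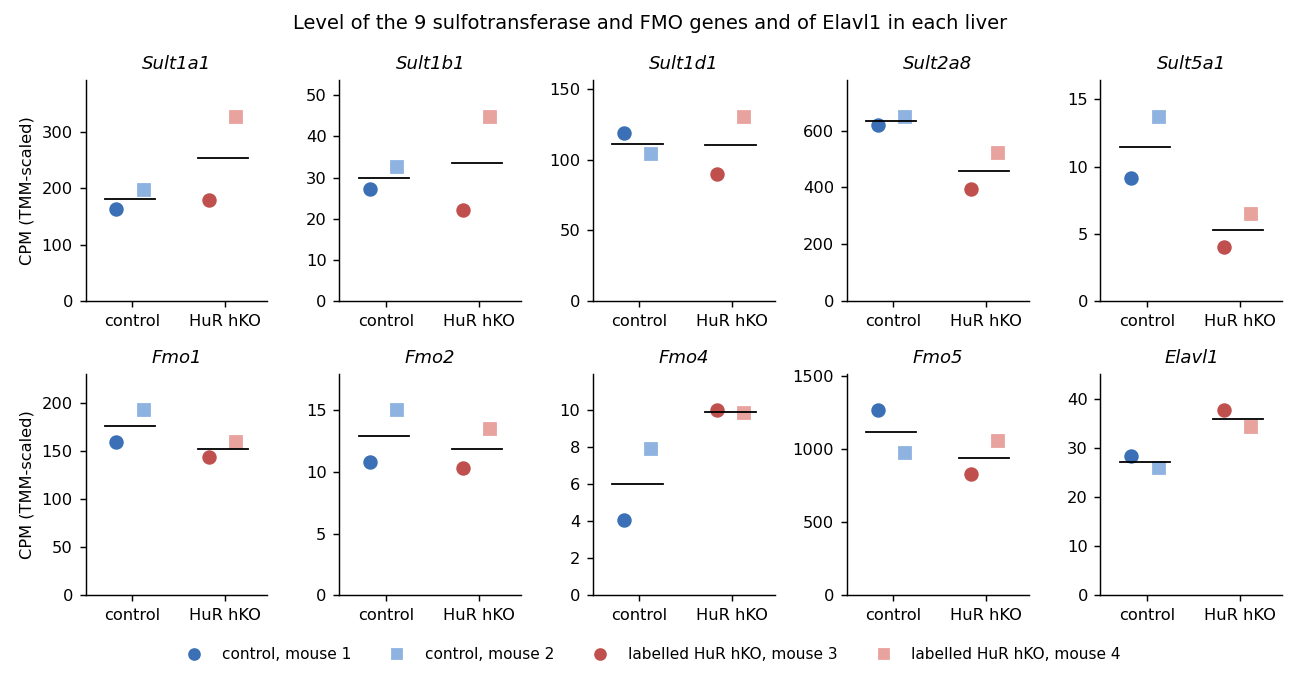
Level of each gene in CPM on TMM-scaled library sizes, with control mice in blue, mice labelled HuR hKO in red and the group mean as a black line; each panel starts at 0 and has its own scale. Sult2a8 and Sult5a1 are lower in both libraries labelled HuR hKO, Fmo4 and Elavl1 are higher in both, and mouse 4 alone carries the high values of Sult1a1 (327 CPM) and Sult1b1 (44.7 CPM).

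Among the FMO genes only Fmo4, a member with low levels in liver, had groups that did not overlap. It had 54 and 106 counts in control mice 1 and 2 and 143 and 185 counts in mice 3 and 4, or 4.06 and 7.90 CPM against 9.96 and 9.81 CPM. The 2 libraries labelled HuR hKO were nearly equal and lay above both controls, while the controls differed from each other more than mouse 2 differed from mice 3 and 4. The mean was 5.98 ± 2.72 CPM in the controls and 9.89 ± 0.109 CPM in the libraries labelled HuR hKO (SD, n = 2 each). The log2 fold change was 0.72 ± 0.292 (SE), a fold of 1.65 with a 95% interval from 1.04 to 2.63, with an unadjusted p-value of 0.0376 and an edgeR adjusted p-value of 0.633. Mouse 1 carried much of it, since the log2 fold change was 0.31 without mouse 1 and 1.28 without mouse 2. Mouse 1 also stood apart in Krt19, a marker of bile duct cells, with 12.2 CPM against 0.37 to 1.8 CPM in the other livers. The 6 bile duct markers summed to 52.8 and 27.5 CPM in the controls and to 39.6 and 49.7 CPM in mice 3 and 4. Most of this sum was Spp1, with 31.5 and 22.3 CPM in the controls and 34.8 and 41.8 CPM in mice 3 and 4. Krt7, Epcam and Cftr were also highest in mouse 1, with Cftr at 0 in the other livers, while Spp1 and Sox9 were highest in mouse 4. The part of these markers in the value of Fmo4 was not tested.

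Fmo5, which carries out Baeyer-Villiger oxidations and is the most abundant FMO transcript of these livers, measured 1262 and 973 CPM in the controls and 825 and 1055 CPM in mice 3 and 4. Mouse 4 lay between the controls, so the groups overlapped. Its log2 fold change was -0.25 ± 0.194 (SE; edgeR adjusted p-value of 0.819), with a 95% interval of the fold from 0.618 to 1.15. Fmo1, the main drug-oxidising FMO of mouse liver, measured 160 and 192 CPM in the controls and 144 and 160 CPM in mice 3 and 4. The level of mouse 4 was within 1 CPM of control mouse 1, so the groups touched. Its log2 fold change was -0.21 ± 0.145 (SE; edgeR adjusted p-value of 0.780). Fmo2, best known as the FMO of lung, measured 10.8 and 15.0 CPM in the controls and 10.3 and 13.5 CPM in mice 3 and 4, with overlapping groups and a log2 fold change of -0.11 ± 0.216 (SE; edgeR adjusted p-value of 0.934). The intervals of Fmo1, from 0.686 to 1.09, and of Fmo2, from 0.655 to 1.30, leave room for a fall of the size seen in Sult2a8.

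Of the 9 genes, 7 had their lowest level in mouse 3, a library that held the lowest level of 21.4% of all genes tested. The exceptions were Sult1a1 and Fmo4, both lowest in mouse 1. The highest level was in mouse 2 for 4 genes, in mouse 4 for 3, and in mouse 1 and mouse 3 for 1 each. Mouse 3 also had the highest TMM factor, 1.04, in a range that began at 0.957. Because the genes were read in the same 4 libraries, these counts are not independent of each other.

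**Figure D3:**
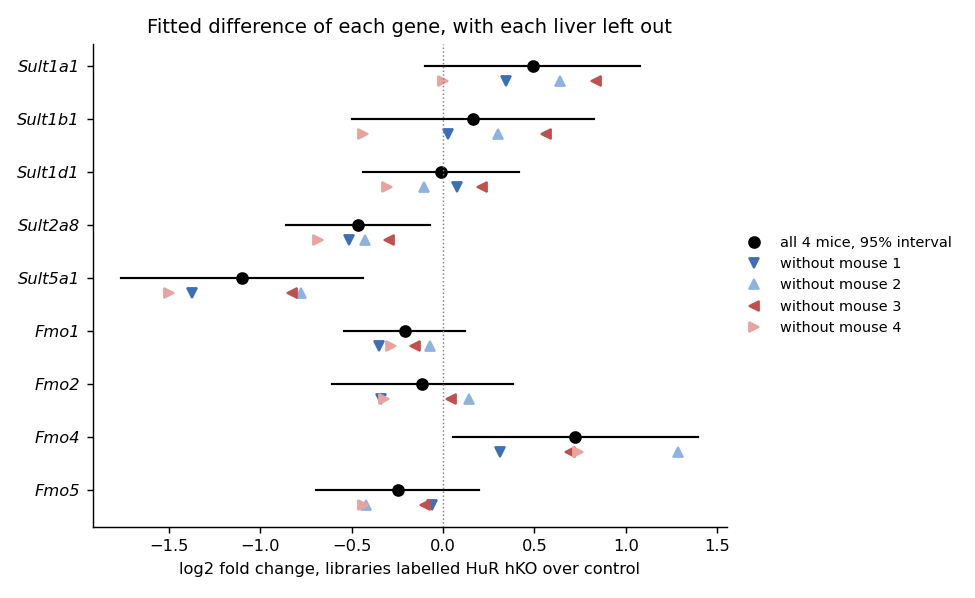
Log2 fold change of each gene (libraries labelled HuR hKO over control) with all 4 mice and its 95% interval in black, and with each mouse left out as coloured triangles. The triangles stay on 1 side of 0 for Sult2a8, Sult5a1, Fmo1, Fmo4 and Fmo5, and reach either side for Sult1a1, Sult1b1, Sult1d1 and Fmo2.

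The make-up of each family was described as the share of each gene in the summed level per kilobase of its family. Sult2a8 made up 52.7% and 51.2% of the 5 sulfotransferase transcripts in the controls and 42.1% and 35.6% in mice 3 and 4. Sult1a1 made up 30.4% and 34.1% in the controls and 42.0% and 48.6% in mice 3 and 4. In the controls Sult2a8 was thus well ahead of Sult1a1, in mouse 3 the shares were level, and in mouse 4 Sult1a1 was ahead. This order depends on the length used. Per kilobase of the longest transcript Sult2a8 was ahead of Sult1a1 in each mouse, with 184 against 132 CPM per kb in mouse 3 and 244 against 239 in mouse 4. Sult1d1 kept between 10.9% and 13.5% and Sult1b1 between 2.75% and 3.60%. Sult5a1 made up 0.582% and 0.804% in the controls and 0.321% and 0.330% in mice 3 and 4.

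Fmo5 made up between 82.9% and 88.7% of the 4 FMO transcripts in every mouse, and the highest and the lowest share were both in controls. Fmo1 followed with 10.1% to 14.7% and Fmo2 with 0.769% to 1.29%, each with overlapping groups. Fmo4 had 0.437% and 1.03% in the controls and 1.56% and 1.22% in mice 3 and 4. These shares are ratios within a library and are not changed by the scaling between libraries. They are given as a description with no test, since they are made from the levels above.

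**Figure D4:**
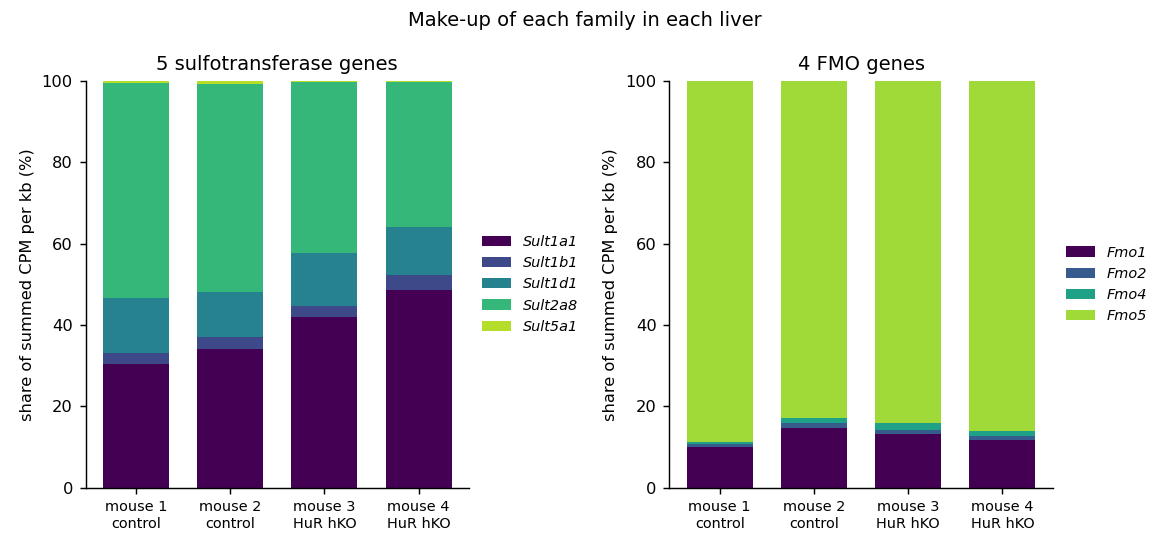
Share of each gene in the summed CPM per kilobase of the 5 sulfotransferase genes (left) and of the 4 FMO genes (right), in percent, with 1 stacked bar for each mouse. The share of Sult2a8 is between 51.2% and 52.7% in the controls and between 35.6% and 42.1% in the libraries labelled HuR hKO, while Fmo5 takes between 82.9% and 88.7% of every FMO bar.

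Of the other 25 Sult and Fmo genes of the table, 1 passed the filter. Sult1c2 had 110 and 75 counts in the controls and 71 and 101 in mice 3 and 4, or 8.27 and 5.59 CPM against 4.95 and 5.36 CPM. In CPM both libraries labelled HuR hKO lay below both controls, as in 18.8% of all genes tested. The log2 fold change of Sult1c2 was -0.42 ± 0.253 (SE; edgeR adjusted p-value of 0.749). Sult1e1, the oestrogen sulfotransferase, had 0 and 10 counts in the controls and 3 and 10 in mice 3 and 4. Sult2a7 had 6 and 13 counts in the controls and 1 and 9 in mice 3 and 4. Of 4 sulfotransferase genes known for higher levels in female mouse liver, 0 passed the filter. Sult3a1 had 5 counts in mouse 2 and 0 in the others, and Sult2a1, Sult2a2 and Sult3a2 had at most 1 count. These 4 genes together came to 0.522 CPM in mouse 2 and to 0 in the other mice, and no test could be made at this depth.

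The genes that supply the sulfonate donor were read from the same fit. Of 13 genes of sulfate uptake, sulfur oxidation and PAPS turnover in the table, 12 passed the filter. At an unadjusted p-value under 0.05, 1 of them was higher and 0 were lower (7.43% of all genes tested, either direction), and 0 passed the adjusted test. The 1 gene was Slc26a1, a sulfate anion transporter, with 177 and 145 CPM in the controls and 192 and 223 CPM in mice 3 and 4 (log2 fold change of 0.37 ± 0.153 (SE), edgeR adjusted p-value of 0.648). Papss2, the main hepatic synthase of PAPS and a gene named here outside the rule after its values were seen, measured 140 and 169 CPM in the controls and 104 and 169 CPM in mice 3 and 4, and its groups overlapped. The median log2 fold change of the 12 genes was 0.11. Of 7 sulfatases, which remove sulfate groups, 1 was higher and 0 were lower at an unadjusted p-value under 0.05 (7.43% of all genes tested, either direction). This was Arsg, a lysosomal arylsulfatase, with 15.3 and 21.6 CPM in the controls and 24.3 and 33.4 CPM in mice 3 and 4 (log2 fold change of 0.65 ± 0.213 (SE), edgeR adjusted p-value of 0.542).

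FMO enzymes draw on NADPH directly, and 6 genes that make NADPH were examined. At an unadjusted p-value under 0.05, 1 was higher and 0 were lower (7.43% of all genes tested, either direction). Pgd, the 6-phosphogluconate dehydrogenase of the pentose phosphate pathway, had 39.7 and 49.8 CPM in the controls and 62.1 and 63.5 CPM in mice 3 and 4. Both libraries labelled HuR hKO lay above both controls, as in 19.3% of all genes tested. Its log2 fold change was 0.49 ± 0.147 (SE), with an edgeR adjusted p-value of 0.490. Of 5 genes for reductases, cytochrome b5 proteins and heme oxygenase, 0 passed at an unadjusted p-value under 0.05. Cyb5a (cytochrome b5) and Cyb5r3 (its reductase), the most abundant of them by CPM, had log2 fold changes of 0.23 ± 0.194 and 0.09 ± 0.196 (SE).

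Of 19 transcription factors and co-regulators known for controlling hepatic drug metabolism, 1 was higher and 1 was lower at an unadjusted p-value under 0.05, and 0 passed the adjusted test. Foxa1, a pioneer factor of liver, had 33.0 and 15.4 CPM in the controls and 15.0 and 12.8 CPM in mice 3 and 4, so that its difference lay mostly in mouse 1 (log2 fold change of -0.80 ± 0.312 (SE), edgeR adjusted p-value of 0.612). Ppara, a fatty acid receptor, had 66.6 and 64.6 CPM in the controls and 74.4 and 105 CPM in mice 3 and 4 (log2 fold change of 0.46 ± 0.175 (SE), edgeR adjusted p-value of 0.602). The median of the 19 genes was -0.07, and the shares of genes called in these lists stand beside the 7.43% of all genes tested.

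**Figure D5:**
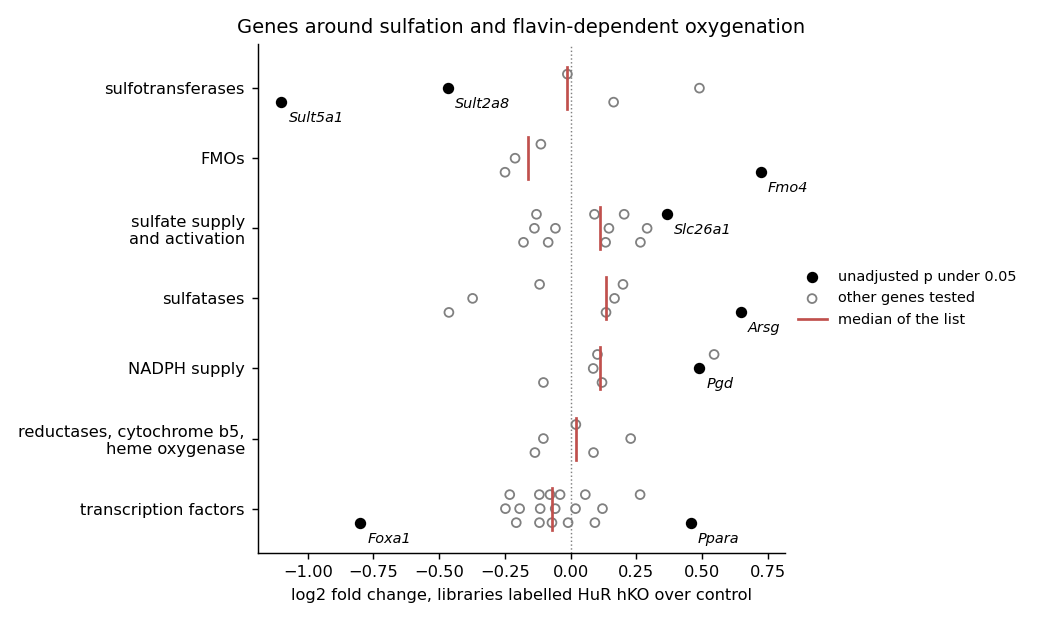
Log2 fold change (libraries labelled HuR hKO over control) of each gene tested in 7 lists, with filled points for an unadjusted p-value under 0.05, open points for the other genes and a red line at the median of each list. The medians lie between -0.16 and 0.13, and Sult5a1, at -1.10, lies lowest.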

How the data were processed

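Total liver RNA of 2 control mice and 2 mice labelled HuR hKO was sequenced by the authors. They deposited whole-number counts per gene without normalization, in 1 table of 46603 Ensembl genes. The submitters' processing notes name RSEM and GRCm38, and the aligner and the use of strand are not given in the sources used here. RSEM gives estimated counts, so the whole numbers may be rounded estimates rather than tallies of reads. It divides reads that match several genes between them, which can blur the counts of genes with shared sequence. Symbols were found for 46005 of the identifiers, and positions and transcripts come from GENCODE M21.

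Counts were filtered with filterByExpr (minimum of 10 counts, total of 15), scaled with TMM factors and compared with the quasi-likelihood test of edgeR 4.0.16 (R 4.3.3), with Benjamini-Hochberg adjustment over the 13001 genes kept. CPM values use the TMM-scaled library sizes. The fold of 1.8 with an unadjusted p-value under 0.05 follows the study's own rule. Alternatives were DESeq2 size factors, upper quartile factors, total counts, no scaling, 2 other filters, DESeq2 1.42.0, edgeR's exact test, limma-voom (limma 3.58.1), the robust test and leaving out each mouse. The scripts were tested on simulated counts. Coding sequences were aligned with biopython 1.88, and figures were drawn with matplotlib 3.10.9 (python 3.11.15). The genes and lists were chosen with earlier results of these data known. Named were the 9 genes, Elavl1, other Sult or Fmo genes with at least 10 counts in a library, and list genes with an unadjusted p-value under 0.05, or otherwise the 2 most abundant. Some genes that this rule covers are not reported here. Bpnt2 and Sts had no entry under these symbols. P-values and intervals rest on the spread between these 4 mice only, with that of each gene moderated by that of all genes tested.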

Additional observations from a re-analysis of the deposited data

How the results depend on the processing

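Under 14 alternatives, Sult5a1 and Sult2a8 stayed lower and Fmo4 stayed higher in the libraries labelled HuR hKO. The alternatives reuse the same 4 mice and are not independent of each other. The unadjusted p-value was under 0.05 under all 14 alternatives for Sult5a1, and under 11 of 14 for Sult2a8 and for Fmo4. For Fmo4 the exceptions were fits with 1 mouse left out. For Sult2a8 they were such fits and edgeR's quasi-likelihood test on counts not scaled for library size (0.743). With 1 mouse left out, the log2 fold change ran from -1.50 to -0.78 for Sult5a1. It ran from -0.69 to -0.29 for Sult2a8 and from 0.31 to 1.28 for Fmo4. Without scaling for library size the median log2 fold change of all genes was 0.31, that of the sulfotransferases 0.34 and that of the FMO genes 0.17, with Sult1d1 at 0.34, Fmo1 at 0.11, Fmo2 at 0.22 and Fmo5 at 0.089. In that setting 2 of the 9 genes were higher and 0 lower under the 1.8-fold rule, against 510 higher and 61 lower of all genes, with 155 at an adjusted p-value under 0.05. Without a filter on low counts, 1 of the 9 genes passed the adjusted test, with 262 higher and 264 lower under the 1.8-fold rule and 161 adjusted calls among all genes. Adjusted calls over all genes were 3 in the main test, 8 with total counts, 85 with DESeq2, 120 with edgeR's exact test and 8 with the robust test. With 1 mouse left out they ranged from 0 to 76, genes under the 1.8-fold rule ranged from 119 to 274 higher and from 139 to 232 lower, each most without mouse 2, members under it numbered 0 to 1 in each direction, and the median of the sulfotransferases reached -0.44 without mouse 4. Then Sult1d1 ran from -0.30 to 0.21, Fmo2 from -0.34 to 0.14, Sult1b1 from -0.44 to 0.56 and Sult1a1 from -0.0027 to 0.84. The lone mouse of a group was assumed to vary like the other group. No paired analysis was possible because the mice of the groups share no number. The cause of these changes was not tested.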

Other observations

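The ratio of counts of 2 genes within a library does not depend on the scaling between libraries, and a few were computed after the values were seen. For 100 counts of Sult2a8 there were 26.5 and 30.5 counts of Sult1a1 in the controls and 45.8 and 62.6 in mice 3 and 4. For 100 counts of Fmo2, Fmo4 had 37.5 and 52.7 counts in the controls and 96.6 and 72.8 in mice 3 and 4. For 100 counts of Sult2a8, Sult5a1 had 1.48 and 2.11 counts in the controls and 1.03 and 1.25 in mice 3 and 4. The groups did not overlap in these 3 ratios. Each of them holds a gene whose groups were already apart, so they restate the levels above and add no further support. For single genes, the groups were apart in 19.3% (higher) and 18.8% (lower) of all genes tested. No such share was computed for ratios. For 100 counts of Fmo5, Sult2a8 had 48.9 and 66.7 counts in the controls and 47.7 and 49.5 in mice 3 and 4, and the groups overlapped.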
